A study of Mus musculus with 8 samples.

Results

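The Hox genes encode homeodomain transcription factors and lie in 4 clusters, Hoxa to Hoxd, on mouse chromosomes 6, 11, 15 and 2. A region of open chromatin was taken as a Hox region when its centre lay between the outermost listed genes of a cluster, or when a listed gene was the nearest annotated gene within 100 kb. The rule used positions and no measured value. It gave 75 of the 160978 regions of the authors' table: 17 for Hoxa, 26 for Hoxb, 18 for Hoxc and 14 for Hoxd. Of these, 71 lay between the outermost genes and 4 just outside, at Hoxa13, Hoxb13, Hoxb1 and Hoxc13.

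Hox genes are numbered by paralog group, and the number follows the order of the genes along the chromosome. In the embryo, low-numbered genes act towards the head and high-numbered genes towards the tail. In blood, several Hoxa and Hoxb genes are active in stem and progenitor cells and are shut as cells mature, and Hoxa9, with its cofactor Meis1, is a well known driver of myeloid leukemia. Polycomb proteins hold silent Hox genes closed, and the MLL complex keeps active ones open.

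The study used ATAC-seq, which reads open chromatin by where a transposase can insert, on mouse bone marrow cells sorted for cKit and against lymphoid and erythroid markers. The 4 leukemic libraries (AML) all have the URE (an upstream regulatory element) deleted on 1 copy of Spi1, which encodes the transcription factor PU.1; 2 of them are also Tet2+/- and 2 are Tet2-/-. The 4 normal libraries are 1 each of URE+/+;Tet2+/+, URE-delta/+;Tet2+/+, URE+/+;Tet2+/- and URE+/+;Tet2-/-, so no normal library has the double genotype and leukemia and genotype cannot be told apart. The values are the authors' finished comparison of leukemic with non-leukemic cells of low PU.1, with 1 log2 fold change and 1 adjusted p-value per region. The sources used here do not say which libraries stood on each side, how many mice each held or how deep each was. No value therefore has a spread between mice, and a p-value measures only what the authors' fit held. By their titles the leukemic libraries ran in lanes 6 and 7 and the normal ones in lanes 6, 7 and 8; the part of the lane was not tested. A positive value means more accessible in leukemic cells, and a value of 1 is a doubling. The sorted cells were checked by the authors' log2 abundance at gene ends: 5 of 6 progenitor genes had a region there, at 1.64 to 3.70 (Myb had none), against medians of -1.70 for 6 lymphoid genes and -0.56 for 6 erythroid genes. The highest of the lymphoid genes was Cd79a, at 1.41 in the authors' deposited table. All 5 regions nearest to Spi1 that passed an adjusted p under 0.001 were lower, from -7.30 to -2.14 in the authors' deposited table.

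No Hox region passed the authors' threshold, an adjusted p under 0.001, in either direction, where 1.24% of all regions were more accessible and 1.22% less accessible. At an adjusted p under 0.05, 12 of the 75 Hox regions were higher in leukemic cells and 1 was lower, against 7.98% higher and 9.21% lower among all regions. The 13 called make up 17.3% of the Hox regions, close to the 17.2% of all regions called at 0.05 in either direction. The split between directions was 16.0% higher and 1.33% lower. Without adjustment, 24 of the 75 had a p under 0.05 (16 higher, 8 lower), against 31.3% of all regions. The lowest adjusted p of a Hox region was 0.00152, so the members nearest to the threshold were all outside it.

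The clusters stood in different directions. In the authors' deposited table the median log2 fold change was -0.61 for Hoxa, 0.43 for Hoxb, 0.79 for Hoxc and -0.68 for Hoxd, and 0.017 over all regions. Values were above 0 at 7 of 17 Hoxa regions, 22 of 26 Hoxb regions, 14 of 18 Hoxc regions and 2 of 14 Hoxd regions. The ranges of the clusters overlapped: Hoxa ran from -2.94 to 1.16, Hoxb from -0.75 to 1.43, Hoxc from -1.16 to 1.95 and Hoxd from -1.38 to 0.034 in the authors' deposited table. Of the 13 regions called at 0.05, 8 lay in Hoxc, 3 in Hoxb and 2 in Hoxa, 1 of these in each direction. No test was made between clusters, since neighbouring regions of 1 cluster are not replicates.

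**Figure D1:**
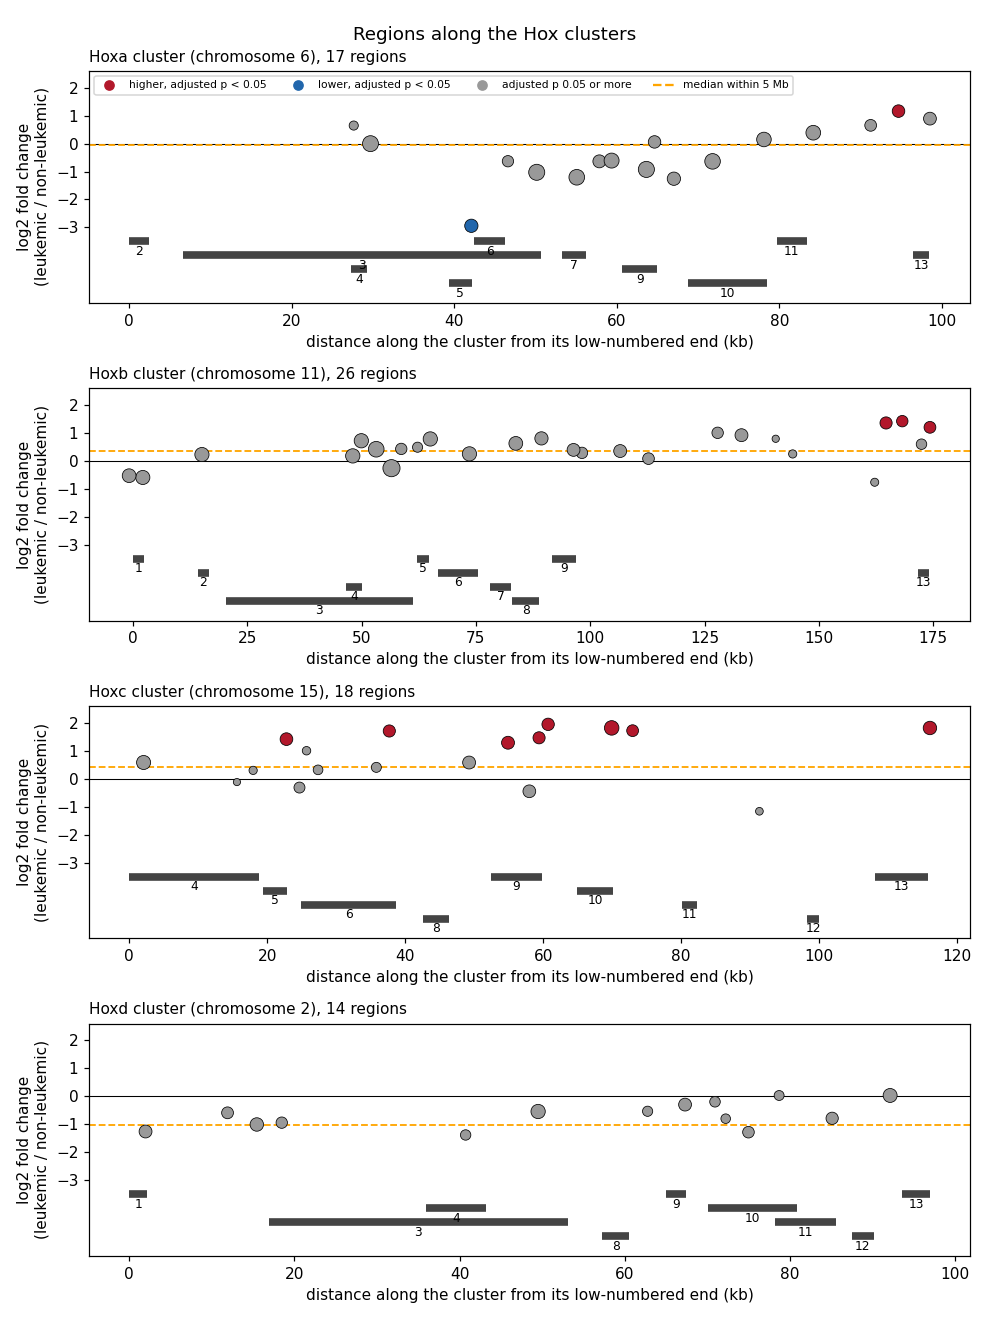
Each panel is 1 cluster, with the distance from its low-numbered end in kb on the x axis and the log2 fold change (leukemic over non-leukemic) of each region on the y axis; point area grows with log2 abundance, bars with numbers are the gene extents by paralog number, and the dashed line is the median of non-member regions within 5 Mb. Hoxa regions from Hoxa5 to Hoxa10 sit mostly below 0 and those towards Hoxa13 above it, 8 Hoxc regions are called higher, and all Hoxd regions are at or below 0.034.

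Part of these differences was shared with the chromosome around Hoxb, Hoxc and Hoxd, and little of it around Hoxa. Regions within 5 Mb that were not Hox regions had a median of 0.37 around Hoxb (927 regions) and 0.42 around Hoxc (674 regions) in the authors' deposited table. Around Hoxd the median of 881 regions was -1.01, and 89.2% of them were below 0. Over all regions of chromosome 2 outside the cluster the median was -0.56, with 69.4% below 0. Around Hoxa the median within 5 Mb was -0.041 over 960 regions. Measured from these local medians, Hoxa stood at -0.57, Hoxb at 0.058, Hoxc at 0.37 and Hoxd at 0.33. The Hoxd cluster was thus low against the genome and not low against regions within 5 Mb. Within 1 Mb of Hoxd the median of non-member regions was also lower than that of the cluster, at -0.91. Non-member regions within 100 kb of Hoxd ran from -2.68 to 0.34, with a middle value of -0.35. Most of them lay above the cluster median of -0.68. Against these closest regions the Hoxd cluster was thus low, and it was not low only against the wider windows. The Hoxb median was close to that of regions within 5 Mb. Among regions within 5 Mb, 20.3% around Hoxc were higher at 0.05, against 8 of 18 (44.4%) inside it.

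**Figure D2:**
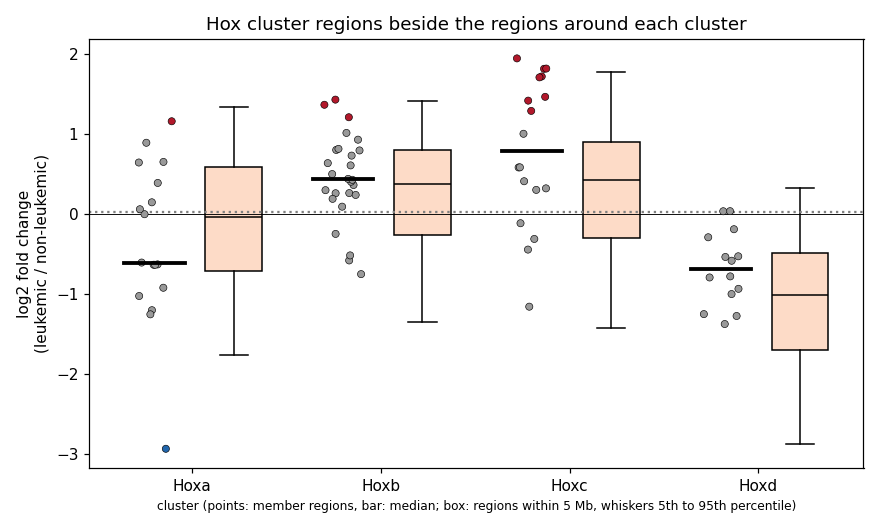
Points are the Hox regions of each cluster with their median as a bar, and boxes are the non-member regions within 5 Mb (quartiles, with whiskers from the 5th to the 95th percentile); the y axis is the log2 fold change and the dotted line the median of all regions. The Hoxa bar lies below the middle of its box, the Hoxd bar above it, and the Hoxb bar close to it.

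The Hoxc genes pattern the trunk and limbs and are less known in blood than Hoxa and Hoxb. The highest Hox value of all was 0.90 kb outside Hoxc9: on chromosome 15, the region from 102975791 to 102976482 had a value of 1.95 (3.85 times as accessible, adjusted p of 0.00152) in the authors' deposited table. It was followed by Hoxc10, where the region at 102966435 to 102967419 over a gene end stood at 1.82 (adjusted p of 0.00159), and by Hoxc13, where a region 0.33 kb outside the gene stood at 1.81 (adjusted p of 0.00255), both in the authors' deposited table. These genes belong to the high-numbered, posterior groups.

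A further region 2.9 kb from Hoxc10 had a value of 1.72 (adjusted p of 0.00281) in the authors' deposited table. Inside Hoxc9 the values were 1.46 (adjusted p of 0.017), -0.45 (adjusted p of 0.52) and 1.29 (adjusted p of 0.028) in the authors' deposited table, in order along the chromosome. Thus 6 of the 8 regions nearest to Hoxc9, Hoxc10, Hoxc12 and Hoxc13 were called higher at 0.05, with a median of 1.59. The exceptions were the middle region of Hoxc9 and a region inside Hotair, the antisense long RNA gene between Hoxc11 and Hoxc12. That region stood at -1.16 (adjusted p of 0.44) in the authors' deposited table, at a log2 abundance of -2.69, among the weakest of all.

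In the low-numbered part of the cluster, calls were fewer. A wide region of 2218 bp over the low-coordinate end of Hoxc6 had a value of 1.71 (adjusted p of 0.032), and one at Hoxc5 stood at 1.42 (adjusted p of 0.026), in the authors' deposited table. The 4 other regions nearest to Hoxc6 ran from -0.31 to 1.00, with 0 called. A region 3.0 kb from Hoxc8 stood at 0.58 (adjusted p of 0.32), and the 3 regions nearest to Hoxc4 at 0.30, -0.12 and 0.58, the last with an adjusted p of 0.51, all in the authors' deposited table. Gene ends carried most of the Hoxc values. Of 10 regions at a gene end (a centre within 1 kb of an end of any gene), 7 were called higher, with a median of 1.44. In gene interiors it was 0 of 6, with a median of 0.10. Among all regions, 9.79% at gene ends and 7.97% in gene interiors were called higher at 0.05.

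Just beyond the rule, 50.5 kb outside Hoxc4, a region at 103087174 to 103087589 near the gene Gm28876 had a value of 2.14 (adjusted p of 5.09e-04) in the authors' deposited table. It was the called region closest to any of the 4 clusters at 0.001, and its neighbour inside Gm28876 stood at 2.05 (adjusted p of 0.00247) in the authors' deposited table. With only protein-coding genes used to find the nearest gene, the first of them counted as a Hoxc4 region, the only Hox call at 0.001 under any setting that was tried at that threshold.

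The Hoxa cluster holds the Hox genes best known in leukemia, and its regions were the most mixed. From Hoxa5 to Hoxa10, with 1 kb on either side, 9 of 11 regions were below 0, with a median of -0.64; this stretch was chosen after its values were seen. The lowest was a short region of 165 bp at the start of Hoxa5, a gene of blood and lung development, at chromosome 6, 52204441 to 52204606. Its log2 fold change was -2.94 (0.13 times as accessible, adjusted p of 0.00439) in the authors' deposited table, at percentile 0.62 of all regions, and it was the only Hox region called lower at 0.05. Its log2 abundance was 0.08, against a median of -1.17 over all regions.

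The next values did not pass 0.05. At Hoxa7, which is active in progenitors, the region inside the gene stood at -1.21 (adjusted p of 0.059) and one 1.7 kb beyond it at -0.64 (adjusted p of 0.265) in the authors' deposited table. Between Hoxa9 and Hoxa10, a region next to the microRNA gene Mir196b stood at -1.26 (adjusted p of 0.073) in the authors' deposited table. The wide region of 2044 bp at the far end of the annotated Hoxa3 extent, which lies between Hoxa6 and Hoxa7, stood at -1.03 (adjusted p of 0.068) in the authors' deposited table.

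Hoxa9 had 3 regions. The strongest Hoxa region of all, with a log2 abundance of 2.06, lay inside Hoxa9 and had a value of -0.92 (adjusted p of 0.115) in the authors' deposited table. Just inside its start (0.31 kb) a region stood at 0.057 (adjusted p of 0.95), and the one 1.3 kb beyond its other end at -0.61 (adjusted p of 0.40), in the authors' deposited table. At Hoxa10, which acts beside Hoxa9 in progenitors, the region inside the gene was -0.64 (adjusted p of 0.21) and the one at its start 0.14 (adjusted p of 0.83) in the authors' deposited table. The regions at the outer starts of Hoxa9 and Hoxa10 were thus near 0, while those deeper inside the genes were below it.

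Towards the high-numbered end the sign turned. The 4 regions from Hoxa11 to Hoxa13, a stretch also chosen after its values were seen, were all above 0, at 0.39, 0.65, 1.16 and 0.89 in that order in the authors' deposited table. Of these, the region 1.8 kb from Hoxa13, a gene of the distal limb and hindgut, was called higher at 0.05, with an adjusted p of 0.027 in the authors' deposited table. At the other end, the 2 regions at Hoxa4 stood at 0.64 (adjusted p of 0.41) and -0.0048 (adjusted p of 1) in the authors' deposited table, the latter at a log2 abundance of 1.92. Hoxa2 had no region nearest to it. Within 1 Mb of the Hoxa cluster, 213 regions that are not members had a median of 0.094.

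The Hoxb cluster, whose Hoxb4 gene is known for expanding blood stem cells, was mostly a little above 0. The strongest Hox region of all, with a log2 abundance of 2.87 (96.1st percentile), lies inside Hoxb3 at chromosome 11, 96311194 to 96312241, and stood at -0.25 (adjusted p of 0.53) in the authors' deposited table. Another region inside Hoxb3 had an abundance of 1.73 and a value of 0.43 (adjusted p of 0.33) in the authors' deposited table. Over the start of Hoxb4 a region stood at 0.73 (adjusted p of 0.27) and the one inside it at 0.19 (adjusted p of 0.74) in the authors' deposited table.

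At Hoxb5, a gene used to mark long-lived stem cells, the regions at the 2 ends stood at 0.79 (adjusted p of 0.11) and 0.50 (adjusted p of 0.51) in the authors' deposited table. Hoxb8, which holds myeloid progenitors in an immature state when forced on, had values of 0.81 (adjusted p of 0.12) and 0.63 (adjusted p of 0.24) in the authors' deposited table. The 5 regions nearest to Hoxb5, Hoxb6 and Hoxb8 were all above 0, with a median of 0.63 and 0 called. Hoxb1, at the low-numbered end, went the other way, at -0.58 (adjusted p of 0.28) and -0.52 (adjusted p of 0.61) in the authors' deposited table. At Hoxb2 the value was 0.24 (adjusted p of 0.71) in the authors' deposited table.

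The 3 Hoxb calls lay at the far high-numbered end, around Hoxb13, a gene of the hindgut and prostate set apart from the rest of the cluster. The region at its low-coordinate end stood at 1.21 (adjusted p of 0.048), and those inside and at the end of the neighbouring gene Gm30134 at 1.43 (adjusted p of 0.032) and 1.36 (adjusted p of 0.022), in the authors' deposited table. Their log2 abundances were between -0.99 and -0.58, at the 54.3rd to 63.2nd percentile. In the gap between Hoxb13 and Hoxb9, 2 regions stood at 0.93 (adjusted p of 0.072) and 1.01 (adjusted p of 0.063) in the authors' deposited table. The remaining regions of that gap and of Hoxb9 ran from -0.75 to 0.80.

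In the Hoxd cluster 12 of 14 regions were below 0 and 0 were called at 0.05. The lowest were a region inside Hoxd4 at -1.38 (adjusted p of 0.13), one inside Hoxd10 at -1.28 (adjusted p of 0.077) and one over the start of Hoxd1 at -1.25 (adjusted p of 0.068) in the authors' deposited table. Within 1 Mb of the cluster, 27.4% of 106 non-member regions were lower at 0.05, with a median of -0.91. The values nearest to 0 were at the high-numbered end: the region beside Hoxd13 stood at 0.034 (adjusted p of 0.98) and a region in the overlap of Hoxd10 and Hoxd11 at 0.032 (adjusted p of 0.99) in the authors' deposited table. The strongest Hoxd region, at the overlap of Hoxd3 with its antisense gene, had an abundance of 0.76 and a value of -0.54 (adjusted p of 0.51) in the authors' deposited table.

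Position within a cluster was compared by the paralog group of the member whose annotated end was nearest. For groups 1 to 4 the medians were -0.0048 in Hoxa (3 regions), 0.21 in Hoxb (8), 0.30 in Hoxc (3) and -0.97 in Hoxd (6). For groups 5 to 8 they were -0.92 in Hoxa (4), 0.63 in Hoxb (5) and 0.58 in Hoxc (7); no Hoxd region was nearest to such a gene. For groups 9 to 13 they were 0.10 in Hoxa (10), 0.61 in Hoxb (13), 1.59 in Hoxc (8) and -0.41 in Hoxd (8). In each of the 4 clusters the median of groups 9 to 13 was above that of groups 1 to 4. In Hoxa this order rested on 1 of the 3 regions of groups 1 to 4, at -1.03. That region lies between Hoxa6 and Hoxa7, where the annotated Hoxa3 extent ends. The other 2, both nearest to Hoxa4, had a median of 0.32, above the 0.10 of groups 9 to 13. Of the 12 regions called higher at 0.05, 10 were nearest to a gene of groups 9 to 13, which hold 39 of the 75 regions, 2 to groups 5 to 8 (16 regions) and 0 to groups 1 to 4 (20 regions). These are descriptions, and with the span cut into 3 equal parts the Hoxc order did not hold, with medians of 0.41, 1.46 and 0.33 from the low-numbered end; its last part held 2 regions.

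**Figure D3:**
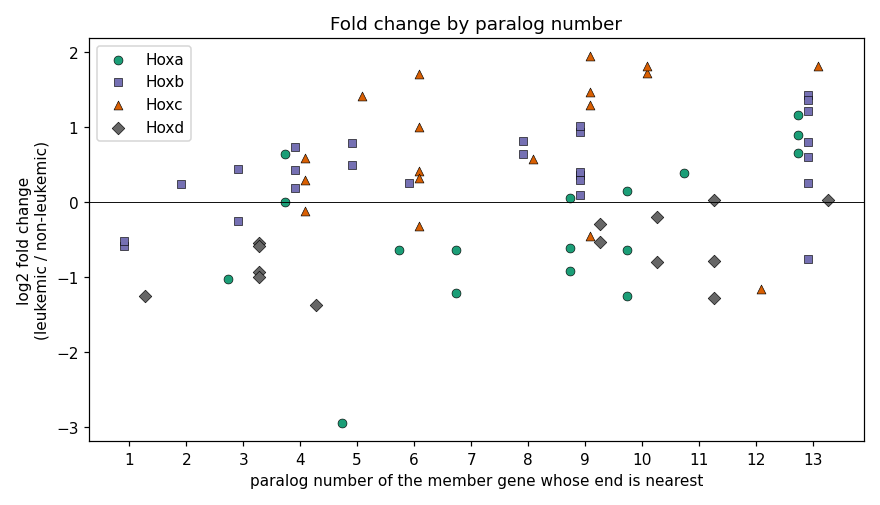
The x axis is the paralog number of the member gene whose end is nearest to a region, the y axis is the log2 fold change (leukemic over non-leukemic), and the symbol gives the cluster. Regions at paralog number 10 and above are mostly above 0 in Hoxb and Hoxc and at or below 0.034 in Hoxd, and Hoxa5 holds the lowest value.

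Of the 38 listed genes, 25 had at least 1 region within 1 kb of an annotated end. The 13 without were Hoxa2, Hoxa7, Hoxb3, Hoxb6, Hoxb7, Hoxc8, Hoxc11, Hoxc12, Hoxd3, Hoxd4, Hoxd8, Hoxd12 and Hoxd13. Hoxa2, Hoxb7, Hoxc11, Hoxd8 and Hoxd12 were also the nearest member of 0 regions. The 41 Hox regions at a gene end had a median of 0.30, with 9 called higher and 1 lower at 0.05; over all 24892 gene-end regions the median was 0.19. The 22 regions in gene interiors had a median of -0.18, with 1 (4.55%) called higher. Over all interior regions the median was -0.016, with 7.97% higher. The 12 between genes had a median of 0.61, with 2 (16.7%) called higher. Over all regions between genes the median was -0.033, with 7.10% higher. The annotation used gives gene extents without exons, so exon, intron and untranslated parts were not told apart, and the long Hoxa3, Hoxb3 and Hoxd3 extents run over neighbouring Hox genes.

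Hox regions were stronger than most regions, but not when gene ends were compared with gene ends. Their median log2 abundance was -0.28, against -1.17 over all regions, and 57 of the 75 lay above the median of all regions. Gene ends held 41 of the 75 Hox regions, against 24892 of all 160978 regions. The median at gene ends was -0.20 for Hox regions, below the 0.20 of all gene-end regions. In gene interiors it was -0.56 against -1.28, and between genes -0.57 against -1.40. The cluster medians of log2 abundance were 0.10 for Hoxa, -0.16 for Hoxb, -0.60 for Hoxc and -0.84 for Hoxd. The cluster with the most calls, Hoxc, was therefore weaker than Hoxa and Hoxb; among its 11 regions above the median abundance of all regions the median fold was 1.46.

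**Figure D4:**
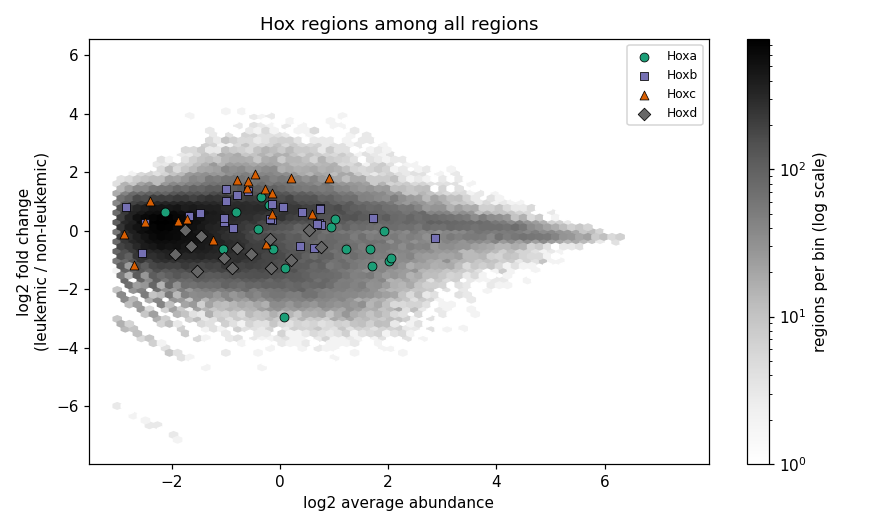
The x axis is the authors' log2 average abundance and the y axis the log2 fold change; grey hexagons count all 160978 regions on a log scale and symbols are the 75 Hox regions. Hox regions lie within the cloud, with the 8 called Hoxc regions, between 1.29 and 1.95, near its upper side and the Hoxa5 region near its lower side.

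Promoter sequences are shown for 6 genes with regions described above. The Hoxc4 window lies inside the annotated Hoxc4 extent, which starts at 103018097, so its start is not a gene end as used above. The RefSeq table (GRCm38.p6) held 24 windows for 22 of the 38 genes, and the 250 bases before the annotated start are printed 5′ to 3′ on the gene's strand. Capitals mark matches on either strand to any of 5 short motifs: GAGGAA for ETS factors such as PU.1, TGACAG for Meis, TGATTNAT for Hox with Pbx, CCAAT for NF-Y and TATAAA for the TATA box. Matches to different motifs may overlap.

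Hoxa5 (chr6:52204588-52204837, minus strand): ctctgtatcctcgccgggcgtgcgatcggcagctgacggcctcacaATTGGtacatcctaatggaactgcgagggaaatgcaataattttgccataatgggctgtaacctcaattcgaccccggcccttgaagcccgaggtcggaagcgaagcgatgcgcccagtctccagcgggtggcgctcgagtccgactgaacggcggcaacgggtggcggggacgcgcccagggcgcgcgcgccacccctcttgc
Hoxa9 (chr6:52227371-52227620, minus strand): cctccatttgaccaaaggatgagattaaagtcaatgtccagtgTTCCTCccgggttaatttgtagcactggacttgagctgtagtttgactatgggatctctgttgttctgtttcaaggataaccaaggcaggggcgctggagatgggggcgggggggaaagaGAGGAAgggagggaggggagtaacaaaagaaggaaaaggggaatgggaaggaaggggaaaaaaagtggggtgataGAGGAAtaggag
Hoxa13 (chr6:52260881-52261130, minus strand): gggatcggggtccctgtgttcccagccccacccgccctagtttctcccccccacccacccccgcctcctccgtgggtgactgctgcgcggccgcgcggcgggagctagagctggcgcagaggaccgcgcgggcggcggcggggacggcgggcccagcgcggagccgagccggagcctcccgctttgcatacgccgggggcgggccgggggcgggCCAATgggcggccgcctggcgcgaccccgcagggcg
Hoxb4 (chr11:96318017-96318266, plus strand): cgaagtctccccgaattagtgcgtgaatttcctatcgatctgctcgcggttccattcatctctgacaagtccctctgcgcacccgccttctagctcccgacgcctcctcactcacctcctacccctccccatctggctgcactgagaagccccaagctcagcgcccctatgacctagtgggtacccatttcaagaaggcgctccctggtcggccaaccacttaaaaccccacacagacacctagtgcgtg
Hoxc4 (chr15:103034145-103034394, plus strand): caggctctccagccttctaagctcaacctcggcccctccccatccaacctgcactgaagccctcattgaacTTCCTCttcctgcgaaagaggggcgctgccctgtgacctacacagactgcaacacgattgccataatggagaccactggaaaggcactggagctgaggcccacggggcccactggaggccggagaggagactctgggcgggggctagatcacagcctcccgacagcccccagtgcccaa
Hoxd1 (chr2:74762730-74762979, plus strand): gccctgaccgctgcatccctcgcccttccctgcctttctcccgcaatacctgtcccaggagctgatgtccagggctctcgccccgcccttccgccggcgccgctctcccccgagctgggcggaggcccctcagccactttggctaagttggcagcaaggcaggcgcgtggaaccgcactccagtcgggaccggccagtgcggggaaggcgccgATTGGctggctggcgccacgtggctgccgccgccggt

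The low Hoxa5 region covered only the last 19 of the printed bases and ran on into the gene. At Hoxb4 and Hoxc4 the region covered all 250 bases, at Hoxd1 217 and at Hoxa13 171, and at Hoxa9 no region reached the window. The Hoxa9 window held 3 matches to GAGGAA and the Hoxc4 window 1, while those of Hoxa5, Hoxa13, Hoxb4 and Hoxd1 held 0. Hoxc4 was the only Hoxc gene with a window, so Hoxc5, Hoxc6, Hoxc9, Hoxc10 and Hoxc13, where the Hoxc calls lay, are not covered. Over the 24 Hox windows, GAGGAA was found in 16.7% (4 windows) against 23.3% of all 32851 windows of the table. TGACAG was found in 8.33% against 15.9%, TGATTNAT in 8.33% against 2.82%, CCAAT in 58.3% against 33.8% and TATAAA in 16.7% against 12.4%. A match is a run of letters and not a bound site. The Hox windows had a median of 12.5 CpG dinucleotides and 58.6% G and C, against 6 and 52.4% over all windows.

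The clusters also hold microRNA genes, and those of the miR-196 and miR-10 families occur in more than 1 cluster. The 5p forms from RefSeq (GRCm38.p6) are printed 5′ to 3′ with the seed, bases 2 to 8, in capitals, because 2 seeds serve 5 genes in the 4 clusters.

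miR-196b-5p (chr6:52230129-52230150, minus strand): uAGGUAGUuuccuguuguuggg
miR-196a-5p (chr11:96265187-96265208, plus strand and chr15:102973365-102973386, plus strand): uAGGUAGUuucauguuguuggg
miR-10a-5p (chr11:96317186-96317208, plus strand): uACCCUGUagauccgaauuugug
miR-10b-5p (chr2:74726074-74726096, plus strand): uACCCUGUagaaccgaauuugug

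The miR-196 seed AGGUAGU occurs in Hoxa (Mir196b), Hoxb (Mir196a-1) and Hoxc (Mir196a-2), and miR-196 is known to target Hoxb8. The nearest regions stood at -1.26 (adjusted p of 0.073) for Mir196b, 0.36 (adjusted p of 0.50) for Mir196a-1 and 1.95 (adjusted p of 0.00152) for Mir196a-2 in the authors' deposited table. Their distances from the mature sequence were 0.40, 3.3 and 2.4 kb. The miR-10 seed ACCCUGU occurs in Hoxb (Mir10a) and Hoxd (Mir10b). The nearest regions stood at 0.73 (adjusted p of 0.27) for Mir10a, at the start of Hoxb4, and at -1.38 (adjusted p of 0.13) for Mir10b, inside Hoxd4, in the authors' deposited table. Genes with the same seed thus lay beside regions of opposite sign, though Mir196a-1 and Mir196a-2 shared a sign. Of these nearest regions only that of Mir196a-2 was called at 0.05, and each sign was that of the median of its cluster. Mir615, inside Hoxc5, occurs in Hoxc alone, and its nearest region is the Hoxc5 region called higher at 0.05, with a value of 1.42 in the authors' deposited table.

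Genes that work with or on Hox genes were counted by whether a region called at 0.001 lay nearest to them, against 5.21% of 32185 genes with a higher and 4.96% with a lower region. Of 9 cofactor genes, only Meis1 had lower regions, down to -4.21 (adjusted p of 4.76e-07) in the authors' deposited table, and 0 of the Meis, Pbx and Pknox genes had a higher one. Among 15 Polycomb genes, Jarid2, which recruits PRC2, had 2 higher regions, at 3.36 and, further along the gene, 2.76 in the authors' deposited table. Asxl1, on chromosome 2, had 2 lower regions, at -3.05 and, over a stronger region, -2.13 in the authors' deposited table. Among 9 genes that keep Hox genes active and had a region, Dot1l, the H3K79 methyltransferase gene, had a lower region at -1.81 (adjusted p of 7.23e-04) in the authors' deposited table, and no other gene of that list was called. The 6 boundary factor genes, Ctcf and cohesin among them, had 0 called.

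Among 14 leukemia partners and targets of Hoxa9, Myb and Cdk6 were among those with higher regions, and 3 genes had lower ones (Erg, Flt3 and Lmo2). Cdk6, a cell cycle kinase gene, had 5 higher regions, with values between 1.76 and 3.01 in the authors' deposited table. Myb, a progenitor transcription factor gene, had 1, at 2.24 (adjusted p of 8.85e-05) in the authors' deposited table. Genes with many regions have more chances of a call, and the lists were not tested.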

How the data were processed

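Per the labels, 8 ATAC-seq libraries of sorted cKit-positive mouse marrow cells were made, 4 leukemic and 4 normal. Per the submitters' processing notes, the tools were Genrich 0.6, Bowtie2 2.4.1 and SAMtools 1.10.2 on GRCm38 (mm10). Reads were compared with csaw, which the deposited table names in its title. Settings, normalization, any shift of reads for the transposase and the base from which starts count were not given in the sources used here; starts are printed as deposited. Per region the authors deposited a log2 fold change, a p-value and its Benjamini-Hochberg adjusted form over all regions. A log2 average abundance was read from the column's position and range. The authors' sets of 2002 more and 1961 less accessible regions equal an adjusted p under 0.001 by sign.

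Regions were assigned to RefSeq gene extents (GRCm38.p6) by their centres with pandas 2.3.3 and numpy 2.4.6; the assignment was tested on simulated data. The table gives 1 value per region, so no test was added and depth and intervals are unknown. Apart from the rule for members, which used positions only, a separate rule set which regions the text names: Hox regions at an adjusted p under 0.05, the most abundant region of each cluster and the regions within 1 kb of the ends of Hoxa7, Hoxa9, Hoxa10, Hoxb3, Hoxb4 and Hoxb5. Other regions, the motifs and the printed promoters were chosen after values were seen. The members and lists were chosen with earlier results of these data known. Some results on listed genes are not reported here.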

Additional observations from a re-analysis of the deposited data

How the results depend on the processing

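No paired analysis was possible because the table holds a finished comparison without values per library, and for the same reason no replicate could be left out. At an adjusted p under 0.05 the Hox calls went from 0 to 12 higher and 1 lower, and at an unadjusted p under 0.05, added after the data were seen, to 16 higher and 8 lower; at 0.0001 they stayed at 0. With protein-coding genes only, 1 region was called higher and the Hoxa median was -0.31. Less the median of regions within 5 Mb, Hoxb stood at 0.058, Hoxc at 0.37 and Hoxd at 0.33, which turned the sign of Hoxd. Above the median abundance the Hoxc median was 1.46. With the span cut into 3 equal parts the medians were 0.32 (low-numbered) and 0.39 (high-numbered) in Hoxa, 0.93 (high-numbered) in Hoxb, and 1.46 (middle) and 0.33 (high-numbered) in Hoxc. With the class from the nearest gene extent, added after the data were seen, Hoxa stood at -0.32 for groups 1 to 4 and -1.21 for groups 5 to 8. The other alternatives moved a median by no more than 0.25 without a change of sign, and left counts at 0. The cause of these shifts was not tested. Unknown depth per library limits every fold.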

Other observations

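Outside the rule but within 1 Mb of a cluster, 23 regions passed an adjusted p under 0.001. Around Hoxa 4 were higher and 0 lower, among them a region near Gm8129 that lay 124 kb beyond the cluster at 2.96 (adjusted p of 2.85e-05) and one at Jazf1, a zinc finger gene, at 1.91 (adjusted p of 9.86e-04), in the authors' deposited table. Around Hoxc 7 were higher and 1 lower. Of the higher ones, 3 were at Tns2, which encodes a tensin of cell adhesion sites, from 2.01 to 2.31, and 1 at Itgb7, an integrin gene of lymphocytes and mast cells, at 2.77 (adjusted p of 2.67e-05), in the authors' deposited table. Around Hoxb 2 were higher, near Phb at 2.39 and Prr15l at 2.58 in the authors' deposited table. Around Hoxd 0 were higher and 9 lower; 3 of them were at Nfe2l2, the gene of the oxidative stress factor NRF2, from -2.60 to -1.08 in the authors' deposited table.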
